A study of Mus musculus with 24 samples.

Results

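The genes described here encode the respiratory chain complexes I to IV and the ATP synthase (complex V) of the inner mitochondrial membrane. They were taken by symbol, as all genes starting with Nduf, Uqcr, Atp5, Cox4, Cox5, Cox6, Cox7 or Cox8 together with Sdha, Sdhb, Sdhc and Sdhd, leaving out the muscle and brown fat isoforms Cox7a1 and Cox8b. Of 24825 genes listed, 90 met this rule, and 86 of them reached 1 FPKM (fragments counted for a gene, scaled to 1000 bases of its length and 1000000 counted fragments) in at least 3 of 24 libraries, 83 of them in all 24. Expression was measured by mRNA sequencing in cells of the stromal vascular fraction (SVF), the non-adipocyte cells of fat, precursors included, here from the inguinal white fat of mice. All cells came from Nfia flox/flox mice, in which exon 2 of Nfia is flanked by loxP sites, and had been immortalized with SV40 large T antigen. The 4 cell types were ctrl (empty retroviral vector), Cre (Cre recombinase), Cre + NFIA (Cre with full-length NFIA that carries a FLAG tag), and the Cre + NFIA Δpro#3 cells (Cre with FLAG-tagged NFIA that lacks only the C-terminal end, named pro#3, of its proline-rich domain). Each was sequenced in 3 replicates before differentiation (day 0) and at day 7, after a cocktail for thermogenic adipocytes that gave every cell type insulin, T3 and rosiglitazone throughout, with isobutylmethylxanthine, indomethacin and dexamethasone at first. The labels do not say whether replicates were separate cultures, so p-values measure the spread between these samples, which may be technical.

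Complexes I and II take electrons from NADH and succinate and pass them to ubiquinone, complex III hands them to cytochrome c, and complex IV hands them to oxygen. Complexes I, III and IV pump protons, and the ATP synthase lets them flow back and makes ATP from the gradient. Brown and beige adipocytes are rich in mitochondria and use the same chain to make heat, because UCP1 lets protons return without making ATP. Most subunits are encoded in the nucleus and a few in mitochondrial DNA. Genes of mitochondrial DNA were not analysed here.

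Libraries held 7.73 to 14.62 M counted reads (M, 1000000). At the level of the whole gene, Nfia was no lower in libraries labelled Cre (10.7, 10.1 and 9.49 FPKM at day 7 against 9.81, 9.15 and 9.70 FPKM in ctrl). Reads outside the floxed exon 2 count towards this level, so it does not check the deletion. The study examined the deletion separately by PCR of genomic DNA, Nfia mRNA by quantitative PCR and NFIA protein by Western blot. Libraries labelled Cre are called Cre below by their label. At day 7 the summed level of 10 adipocyte markers was 21989 to 25628 FPKM in ctrl, 4396 to 9451 in libraries labelled Cre, 20657 to 20851 in Cre + NFIA and 841 to 2124 in Cre + NFIA Δpro#3, against 72.6 to 118.4 at day 0. The 7 precursor markers summed to 499 to 548, 1098 to 1235, 527 to 597 and 1254 to 1512 FPKM in the same order at day 7, and 2024 to 2369 FPKM over all day 0 libraries. Ly6a made up most of this sum, with ctrl means of 1801 FPKM at day 0 and 386 FPKM at day 7. In ctrl Thy1 went the other way from the other precursor markers, with means of 20.9 FPKM at day 0 and 45.8 FPKM at day 7. The 6 smooth muscle markers summed to 272 to 351, 342 to 408, 150.3 to 181 and 437 to 536 FPKM at day 7, and 8 proliferation markers to 531 to 741 FPKM over all libraries. Endothelial markers summed to at most 10.2 FPKM, macrophage markers to at most 13.6, skeletal muscle markers to at most 7.33 and Schwann cell markers to at most 2.32, with Tie1, Myod1 and Myh4 listed at 0 in every library. In such bulk samples fewer cells of a type and less RNA per cell cannot be told apart, and the part of the marker differences in the results below was not tested.

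The 86 genes comprised 7 core and 28 accessory subunits of complex I, 8 assembly factors of complex I, all 4 subunits of complex II, 8 genes of complex III, 13 of complex IV, 15 of complex V, and 3 related genes (Cox7a2l, Ndufa4l2 and Atp5s). Cyc1 (cytochrome c1) of complex III is not taken by the symbol rule and is counted below among the electron carrier genes. Of the 4 genes that did not reach the threshold, Ndufs5, Cox7b2 and Cox8c were listed at 0 in all 24 libraries. Only unique alignments were counted, so a listed 0 does not show that a gene was not expressed. Cox4i2, the lung and hypoxia isoform of Cox4, reached 1.21 FPKM (11 reads) in its highest library. The genes were short, with a median length of 823 bases (320 to 3632) against 2875.5 bases over the 12640 genes tested, and the 85 with a position in mm9 lay on 19 chromosomes. The most abundant subunits were Atp5b, the catalytic β subunit of ATP synthase, at a mean of 1084 FPKM over all libraries, Cox6a1 of complex IV at 659, Uqcr11 of complex III at 369, Ndufb9 of complex I at 207 and Sdha, the flavoprotein of complex II, at 119.8.

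Promoters of 7 genes are shown, 6 that were higher at day 7 than at day 0 in ctrl and were picked because they hold different motifs known from respiratory genes, and Cox7a2l, which was not called in that comparison. Sequences are the 120 bases before the start from RefSeq (GRCm38.p6), written along the gene's strand, with capitals for matches on either strand to the motifs of NRF1 (nuclear respiratory factor 1, its palindromic core), ETS factors (CCGGAAG), YY1 (AAGATGGC) and ERR (estrogen-related receptors, TCAAGGTCA). Atp5g3, Atp5g2 and Atp5k belong to complex V, Ndufa11 to complex I, Uqcrh to complex III and Sdhd to complex II.
Atp5g3 (chr2:73911327-73911446, minus strand): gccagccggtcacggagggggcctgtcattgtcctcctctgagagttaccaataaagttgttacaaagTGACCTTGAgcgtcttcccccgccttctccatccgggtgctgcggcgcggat
Atp5g2 (chr15:102671048-102671167, minus strand): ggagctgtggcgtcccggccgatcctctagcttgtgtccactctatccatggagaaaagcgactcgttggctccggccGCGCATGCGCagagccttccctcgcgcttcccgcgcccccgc
Atp5k (chr5:108434400-108434519, minus strand): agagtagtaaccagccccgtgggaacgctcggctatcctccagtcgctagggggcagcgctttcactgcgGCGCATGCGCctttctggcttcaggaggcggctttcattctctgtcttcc
Ndufa11 (chr17:56717642-56717761, plus strand): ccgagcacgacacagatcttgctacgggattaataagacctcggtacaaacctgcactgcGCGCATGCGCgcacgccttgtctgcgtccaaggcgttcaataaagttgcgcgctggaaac
Uqcrh (chr4:116075071-116075190, minus strand): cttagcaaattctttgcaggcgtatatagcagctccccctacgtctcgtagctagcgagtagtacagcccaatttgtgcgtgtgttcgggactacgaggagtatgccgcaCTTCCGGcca
Sdhd (chr9:50603850-50603969, minus strand): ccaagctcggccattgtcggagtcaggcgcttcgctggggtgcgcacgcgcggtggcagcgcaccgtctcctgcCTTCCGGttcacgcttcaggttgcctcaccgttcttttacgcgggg
Cox7a2l (chr17:83514334-83514453, minus strand): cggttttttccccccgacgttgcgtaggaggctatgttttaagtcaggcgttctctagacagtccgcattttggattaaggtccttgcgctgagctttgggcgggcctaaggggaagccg
The match in Atp5g3 is an ERR motif that begins at position -52, those in Atp5g2, Atp5k and Ndufa11 are NRF1 motifs at -42, -50 and -60, and those in Uqcrh and Sdhd are ETS motifs at -10 and -46, counted from the start. The window of Cox7a2l holds no match.

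Promoter windows (250 bases before to 50 after the start) were found for 72 of the 86 genes, in 77 windows. The NRF1 motif was present in 9.09% of these windows (7) against 1.33% of all 21263 windows of the same length. The ETS motif was present in 23.4% (18) against 11.6%, YY1 in 14.3% (11) against 3.05% and ERR in 2.60% (only 2 windows) against 0.334%. All windows are those of protein-coding genes, expressed in these cells or not, so the shares were not compared with other expressed genes. The CCAAT box was present in 42.9% against 38.2%. The full palindromic NFI motif was found in 0 of the 77 windows and in 0.0329% of all windows, and the single NFI site TTGGCA in 19.5% against 13.1%. A match is a run of letters and no evidence of binding, and no match says only that the letters are not in this window. The 7 printed promoters were picked, so they do not show whether motifs go with expression changes. For Cre + NFIA against Cre at day 7, the median log2 fold change was 0.74 with the NRF1 motif and 0.84 without. For ETS these medians were 0.88 and 0.80, for YY1 0.76 and 0.84, and for ERR 1.05 (2 genes) and 0.83. These differences were not tested.

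Before differentiation, 0.725% ± 0.049 (SD, n = 3) of the counted reads in ctrl came from the 90 genes. At day 7 this share was 2.09% ± 0.171 in ctrl, 1.203% ± 0.157 in libraries labelled Cre, 2.21% ± 0.0105 in Cre + NFIA and 0.930% ± 0.0429 in Cre + NFIA Δpro#3 (SD, n = 3 each). The range in ctrl, 1.92% to 2.26%, lay above the 1.05% to 1.36% of Cre, and all 3 Δpro#3 libraries, at 0.904% to 0.980%, lay below Cre. At day 0 the means in Cre, Cre + NFIA and Cre + NFIA Δpro#3 were 0.794% ± 0.010, 0.865% ± 0.0144 and 0.923% ± 0.0307. Complex V took the largest part at day 7 in ctrl (0.885% ± 0.0640 of reads), followed by complex I without its assembly factors (0.477% ± 0.0420), complex IV (0.388% ± 0.0402), complex III (0.192% ± 0.0170) and complex II (0.117% ± 0.00734).

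**Figure D1:**
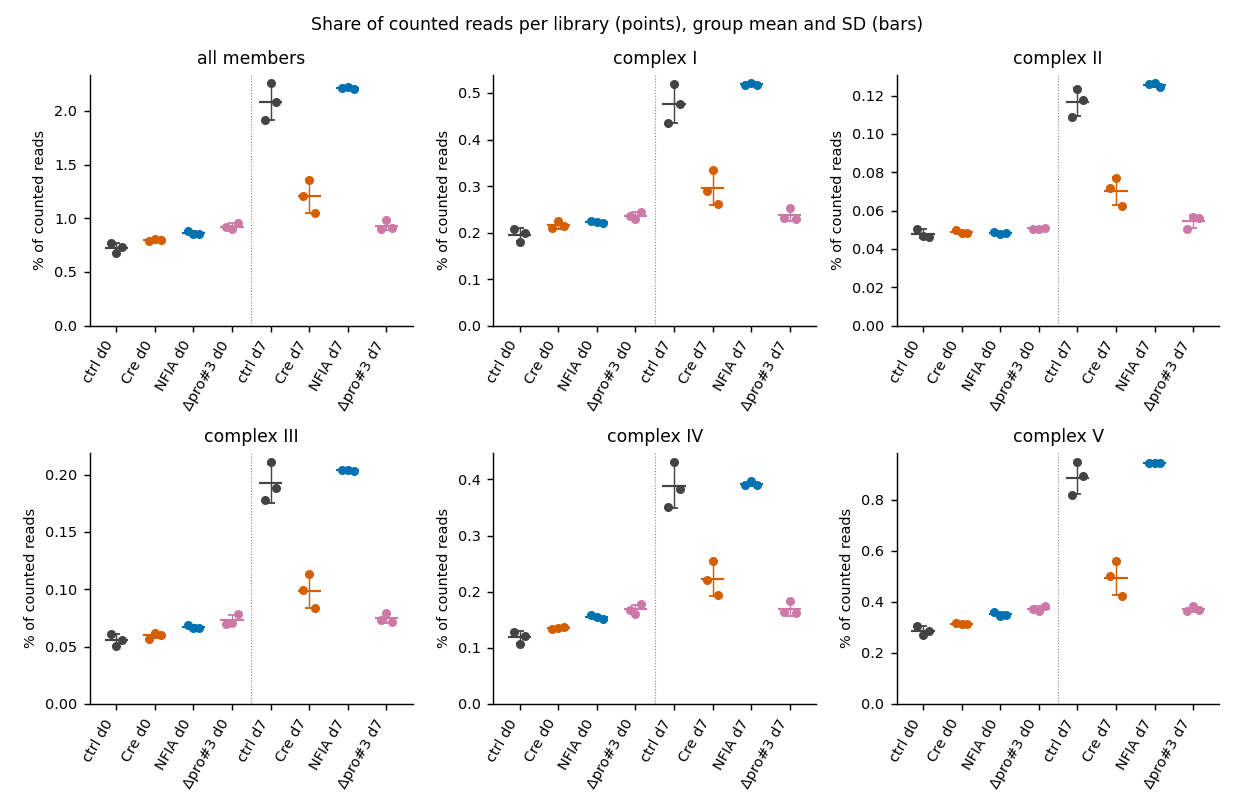
Share of counted reads from the genes of each complex, in percent, per library. Points are libraries, horizontal lines group means and error bars SD (n = 3). At day 7 ctrl and Cre + NFIA lie at 1.92% to 2.26% for all genes, the Cre libraries span 1.05% to 1.36%, and those of Cre + NFIA Δpro#3 span 0.904% to 0.980%, near the day 0 level.

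Within the groups the libraries also differed. Of the 86 genes, 76 were highest in replicate 2 of Cre at day 7 and 75 were lowest in replicate 3, the libraries with the highest (9451 FPKM) and the lowest (4396 FPKM) adipocyte marker sum of that group. In ctrl at day 7, 75 genes were lowest in replicate 1, whose adipocyte sum was the lowest of the group (21989 FPKM), and 73 were highest in replicate 2, whose sum was the highest. In Cre + NFIA at day 7 no library held most of the highest values, with 20, 43 and 23 genes highest in replicates 1, 2 and 3. The order of the genes did not follow the adipocyte markers in every group. In Cre + NFIA Δpro#3 at day 7, 59 genes were highest in replicate 2 (1933 FPKM) and 42 were lowest in replicate 3, which had the highest adipocyte sum of the group (2124 FPKM). In ctrl at day 0, 58 genes were highest in replicate 1, with the lowest sum (112.7 FPKM), and 54 were lowest in replicate 2, with the highest (118.4 FPKM). These day 0 sums differ little and are mostly Lpl (80.3, 91.4 and 84.7 FPKM in replicates 1, 2 and 3), so they say little about adipocyte content.

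To see how the chain changes during differentiation, day 7 was compared with day 0 in ctrl. Nearly the whole set rose, 83 of 86 genes, with none lower, and the median log2 fold change was largest in complexes III (1.87) and IV (1.57). Calls are from limma on log2(FPKM + 1), at 0.05 after Benjamini-Hochberg adjustment, where fold changes understate those of low genes. Of all 12640 genes tested, 71% were called in this comparison, 32.9% higher and 38.1% lower. The median log2 fold change was 1.35 for the 86 genes and -0.053 for all genes, and among other genes of at most 1500 bases 42.3% were higher, with a median of 0.22. At least 3-fold changes on the log2(FPKM + 1) scale were seen in 24 of the 86 (27.9%, against 8.5% of all genes), all of them higher.

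Uqcrq, a small subunit of complex III (chr11:53241424-53244333 in mm9), rose most on the log2(FPKM + 1) scale. Its ctrl levels were 39.1, 29.1 and 37.3 FPKM at day 0 against 165, 211 and 183 FPKM at day 7 (change of 2.38 on the log2 scale with an SE of 0.14, limma adjusted p = 2.23e-12). Cox6a2 (chr7:135348950-135349880), the heart and muscle isoform of subunit VIa, went from 0.404, 0.365 and 0.232 FPKM to 3.46, 6.51 and 7.53 FPKM (change of 2.31 on the log2 scale with an SE of 0.20, limma adjusted p = 1.86e-09). By mean FPKM, without the added 1, Cox6a2 rose 17.5-fold and Uqcrq 5.31-fold. In both genes every day 7 library lay above every day 0 library, although Cox6a2 stayed far below its sister Cox6a1, which rose from 372 ± 69.04 to 1098 ± 153 FPKM (SD, n = 3). Atp5g3 (chr2:73746504-73749383), 1 of 3 genes for the same subunit c of the proton-carrying ring of ATP synthase, was at 189, 171 and 193 FPKM and then at 833, 961 and 944 FPKM (change of 2.30 on the log2 scale with an SE of 0.088, limma adjusted p = 3.83e-15). The core catalytic subunits rose less steeply but without overlap. Ndufs1, an iron-sulfur subunit of complex I, went from 27.1, 26.6 and 24.3 to 52.8, 54.0 and 61.0 FPKM (change of 1.08 on the log2 scale with an SE of 0.066, limma adjusted p = 5.17e-12). Sdha went from 83.8, 81.3 and 79.2 to 186, 199.7 and 201 FPKM (change of 1.25 on the log2 scale with an SE of 0.062, limma adjusted p = 1.90e-13). Atp5b rose from 587, 513 and 547 to 1909.8, 2184 and 2094 FPKM (change of 1.91 on the log2 scale with an SE of 0.081, limma adjusted p = 1.62e-14), the highest level of any of the 86 genes.

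**Figure D2:**
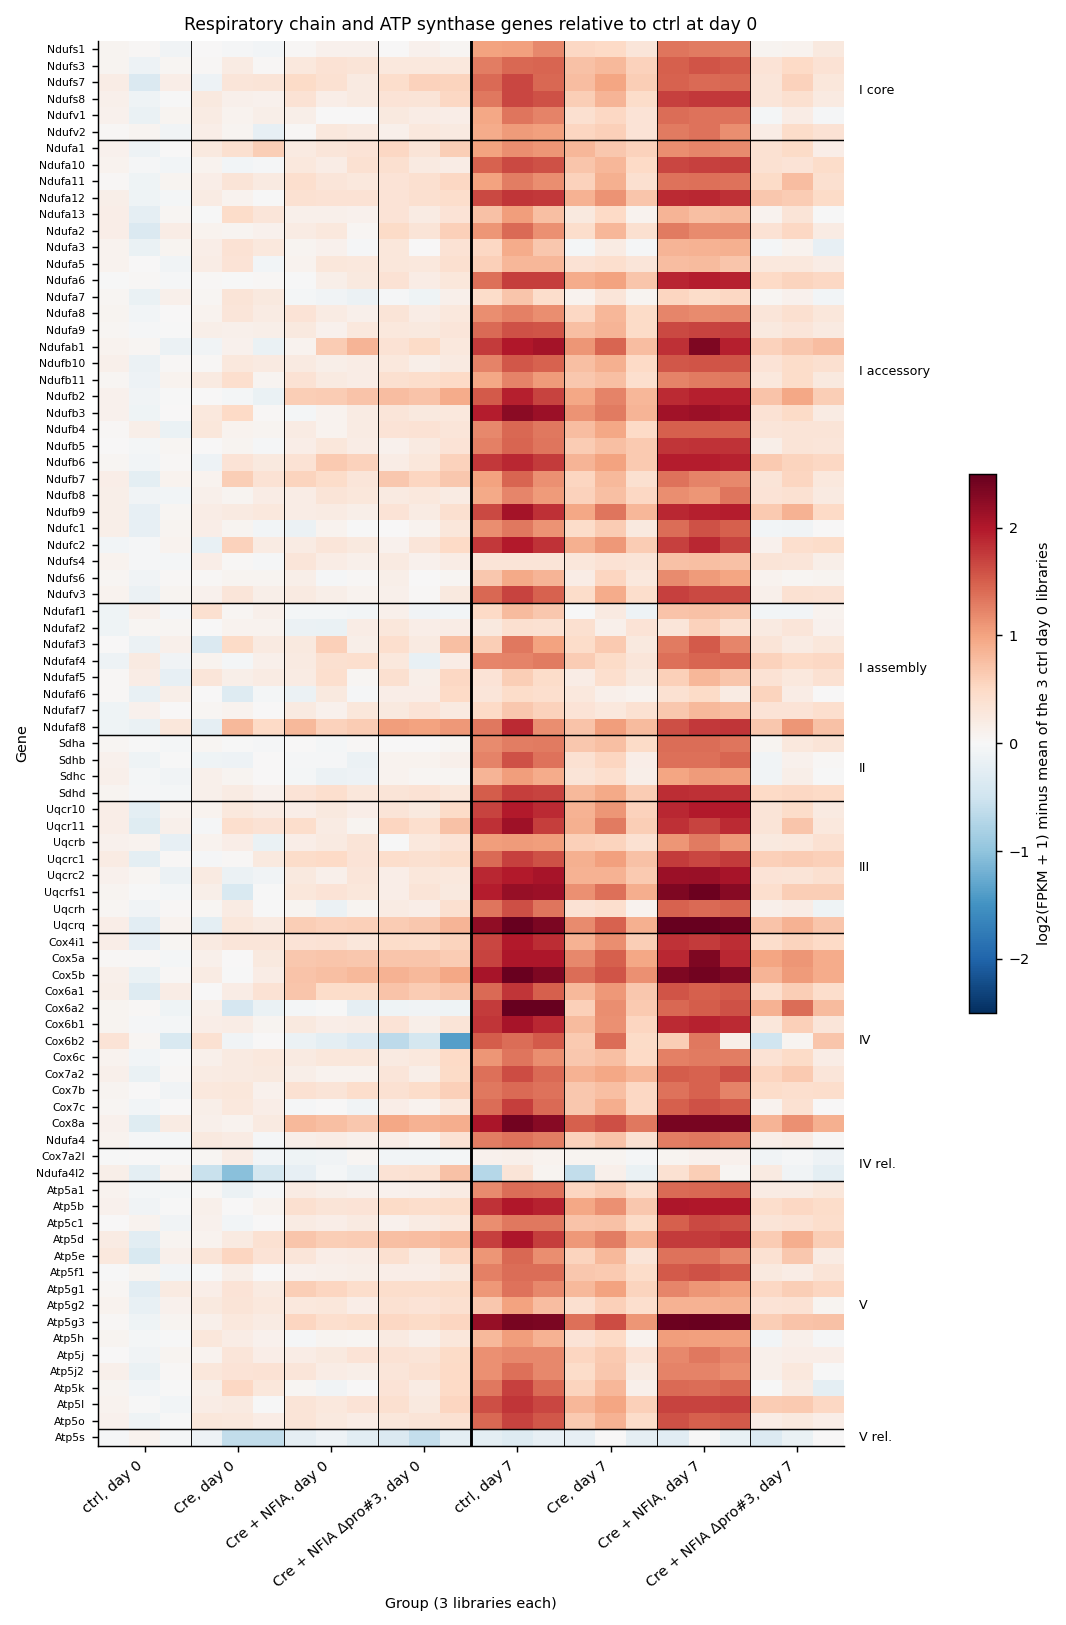
Each of 85 of the 86 genes (rows, grouped by complex, with rel. for related genes) in each of 24 libraries (columns, 3 per group), as log2(FPKM + 1) minus the mean of the 3 ctrl libraries at day 0. Day 7 columns of ctrl and Cre + NFIA are red in nearly every row, Cre is paler and Cre + NFIA Δpro#3 is close to day 0, and the rows of Cox7a2l and Atp5s change little.

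The other cell types differed in this rise. In libraries labelled Cre 68 of 86 genes rose (median 0.48), where 51.7% of all genes were called and 30% were higher, and in Cre + NFIA 84 rose (median 1.27), where 70.1% were called and 31.8% were higher. In Cre + NFIA Δpro#3 10 rose and 4 fell (median 0.024), where 41.5% of all genes were called, 24.5% higher and 17% lower. The 10 were Cox6a2, Cox6b2, Ndufaf4, Ndufb9, Cox5a, Uqcrfs1, Ndufa6, Sdha, Atp5c1 and Sdhd, and the 4 were Atp5j, Atp5j2, Ndufa3 and Atp5k. With median-of-ratios size factors this became 3 higher and 5 lower, with quantile normalization 18 higher and 2 lower, so the balance there depends on the scaling, and with each library of the group left out in turn 8 or 9 genes were called in all, among them 3 higher and 6 lower without replicate 2 at day 7. On the log2(FPKM + 1) scale no gene rose 3-fold in Cre (2.73% of all genes changed that far) or in Cre + NFIA Δpro#3 (1.46%), and 14 did in Cre + NFIA (9.08%). By mean FPKM 2 low isoforms passed 3-fold, Cox6a2 from 0.213 to 1.37 FPKM in Cre and from 0.243 to 1.75 FPKM in Cre + NFIA Δpro#3, and Cox6b2 from 0.524 to 1.92 FPKM in Cre + NFIA Δpro#3, where 6.27% and 4.36% of all genes changed that far by mean FPKM. The 10 adipocyte markers were all higher at day 7 than at day 0 in Cre + NFIA Δpro#3 too, with a median log2 fold change of 2.96.

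Whether the differences between cell types themselves changed from day 0 to day 7 was tested as an interaction in all 24 libraries. For Cre against ctrl the difference moved down in 78 genes and up in 1 (Atp5s), at a median of -0.83, where 49.2% of all genes were called, 19.5% down and 29.7% up. For Cre + NFIA against Cre it moved up in 69 and down in none (median 0.71, 48.9% of all genes called, 18.8% up). For Cre + NFIA Δpro#3 against Cre it moved down in 55 and up in none (median -0.48, 18.2% of all genes called, 10.4% down), 41 without replicate 2 of Cre at day 7.

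At day 7 Cre was compared with ctrl, to see the chain in cells where Nfia was targeted. Most of it was lower, with 78 of 86 genes lower and none higher, at a median log2 fold change of -0.70. In the set taken by symbol, all 4 genes of complex II, all 8 of complex III and all 15 of complex V were lower. So were the 7 core subunits of complex I, 27 of its 28 accessory subunits and 12 of 13 genes in complex IV. Over all genes 58.8% were called, 22.7% lower and 36.1% higher, at a median of 0.091, and among other genes of at most 1500 bases 29.2% were lower, at a median of -0.068. No gene of the set passed 3-fold on the log2(FPKM + 1) scale, against 1.51% of all genes, and 1, the low isoform Cox6a2, did by mean FPKM (4.27-fold), against 3.92%.

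Complex III held the largest median fall (-0.98), although the range of complex IV (-1.499 to -0.55) was wider. Uqcrc2 (chr7:127778690-127802992), a core subunit of complex III, was at 114, 122 and 128 FPKM in ctrl against 56.04, 56.02 and 47.7 FPKM in Cre (change of -1.17 on the log2 scale with an SE of 0.067, limma adjusted p = 2.97e-07). Uqcrq was at 165, 211 and 183 FPKM against 80.7, 99.2 and 65.8 FPKM (change of -1.19 on the log2 scale with an SE of 0.13, limma adjusted p = 9.61e-06). The lowest ctrl library of either gene lay above the highest Cre library. Uqcrfs1, the Rieske iron-sulfur protein that passes electrons on to cytochrome c1, was at 143 ± 11.1 and 73.7 ± 12.1 FPKM (SD, n = 3), and Uqcrc1, the partner of Uqcrc2 in the core, at 177 ± 18.1 and 109 ± 11.8 FPKM. In complex IV the fall of Cox6a2 was the largest of the set on the log2 scale, from 3.46, 6.51 and 7.53 to 1.01, 1.99 and 1.10 FPKM (change of -1.499 on the log2 scale with an SE of 0.24, limma adjusted p = 0.000199). The level of Cox6a2 is low in both groups and its ctrl libraries were spread widely. Cox4i1, the ubiquitous isoform of subunit IV, went from 839, 1039.8 and 939.8 to 479.9, 589.9 and 401 FPKM (change of -0.95 on the log2 scale with an SE of 0.12, limma adjusted p = 3.47e-05), without overlap.

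In complexes I and II, where electrons enter the chain, the medians were -0.72 for core complex I and -0.75 for complex II. Ndufv1, which binds NADH and FMN, was at 121, 157 and 145 FPKM in ctrl against 81.5, 88.5 and 77.5 FPKM in Cre (change of -0.76 on the log2 scale with an SE of 0.092, limma adjusted p = 2.62e-05). Log2 fold changes of other core subunits were -0.64 for Ndufs1 and -0.72 for Ndufs7, whose product carries the last iron-sulfur cluster before ubiquinone. In complex II, Sdhb, the iron-sulfur subunit, fell furthest, from 176, 225 and 189.5 to 96.3, 107 and 82.5 FPKM (change of -1.04 on the log2 scale with an SE of 0.10, limma adjusted p = 5.49e-06). The 2 membrane anchors fell by 0.64 (Sdhc) and 0.85 (Sdhd) on the log2 scale and Sdha by 0.62. In the ATP synthase Atp5b, from 1909.8, 2184 and 2094 to 1074, 1207 and 876 FPKM (change of -0.98 on the log2 scale with an SE of 0.10, limma adjusted p = 8.98e-06), fell more than its partner in the catalytic head, Atp5a1, at -0.78, and than the rotor shaft subunit Atp5c1, at -0.63. These differences between genes were not tested.

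Genes that were not called were Ndufs4, Cox6b2, Cox7a2l, Ndufa4l2, Atp5s and the complex I assembly factors Ndufaf2, Ndufaf5 and Ndufaf6. Ndufs4, an accessory subunit of the NADH-oxidizing module, was at 41.5, 41.5 and 41.7 FPKM in ctrl against 40.5, 42.6 and 41.6 FPKM in Cre, a log2 fold change of 0.00021 (SE 0.051). Cox7a2l, which takes part in joining complexes III and IV into supercomplexes, was at 98.5, 99.9 and 97.1 against 95.4, 95.1 and 89.5 FPKM. It varied little in the whole series, with 83.4 to 104.0 FPKM over the 24 libraries.

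**Figure D3:**
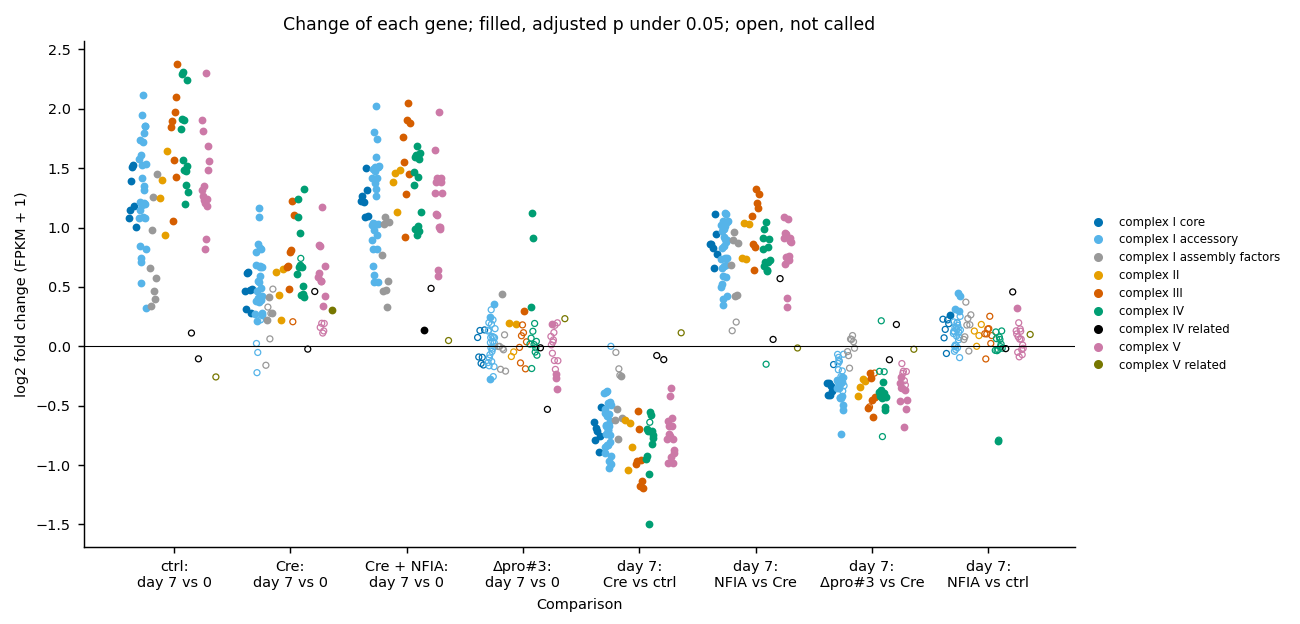
Log2 fold change of FPKM + 1 for each of the 86 genes (points, coloured by complex) in 8 comparisons. Filled points passed an adjusted p under 0.05 and open points did not. Rises from day 0 to day 7 reach 2.38 in ctrl (Uqcrq), the points for Cre against ctrl lie almost all below 0 and those for Cre + NFIA against Cre almost all above 0.

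Full-length NFIA was then compared with Cre at day 7. Nearly every gene was higher, 80 of 86 with none lower, at a median log2 fold change of 0.83, where 63% of all genes were called, 27% higher and 35.9% lower, at a median of -0.057. Other genes of at most 1500 bases were higher in 33.9%, at a median of 0.11. The 7 core and 28 accessory subunits of complex I, 4 of complex II, 8 of complex III and 15 of complex V were all higher, with 12 of 13 in complex IV and 6 of 8 assembly factors. The genes not called were Ndufa4l2, Ndufaf6, Ndufaf2, Cox7a2l, Atp5s and Cox6b2, and none passed 3-fold on the log2(FPKM + 1) scale (3.63% of all genes) or by mean FPKM (7.87%). This comparison and the one of Cre with ctrl share the Cre libraries, so an opposite direction in them is not independent.

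Complex III again held the largest median, 1.13. Uqcrc2 was at 136, 138 and 129 FPKM in Cre + NFIA against 56.04, 56.02 and 47.7 FPKM in Cre (change of 1.32 on the log2 scale with an SE of 0.067, limma adjusted p = 2.55e-08). Uqcrq was at 200.4, 199.6 and 193 FPKM (change of 1.28 on the log2 scale with an SE of 0.13, limma adjusted p = 3.26e-06) and Uqcrfs1 at 168, 183 and 161 FPKM against 73.4, 86.0 and 61.8 FPKM in Cre (change of 1.21 on the log2 scale with an SE of 0.11, limma adjusted p = 1.41e-06). In all 3 genes the Cre + NFIA libraries lay above every Cre library. In complex V the log2 fold changes were 0.91 for Atp5a1 and 1.08 for Atp5b, the core subunits of complex I ran from 0.66 (Ndufs7) to 1.11 (Ndufs8), with 0.95 for Ndufv1, and complex II ran from 0.74 (Sdhc) to 1.04 (Sdhb). In complex IV, the nuclear-encoded Cox5a and Cox5b were at 201 ± 37.6 and 674 ± 24.9 FPKM against 114 ± 20.9 and 343 ± 51.8 FPKM in Cre (SD, n = 3). Replicate 2 of Cre + NFIA held the highest Cox5a of the series.

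Few genes were called between Cre + NFIA and ctrl. Of 86 genes 6 were higher (6.98%) and 1 was lower (1.16%), at a median log2 fold change of 0.10. Of all genes 18% were called (8.81% higher, 9.15% lower and 0.301% past 3-fold), a larger share than of the 86. Scaled by median-of-ratios size factors, the split of the 86 was 3 higher and 1 lower. The 6 higher were Ndufb5, Ndufs4, Ndufa6, Ndufc1, Ndufv2 and Atp5c1, 5 of them in complex I, which holds 7 core and 28 accessory subunits of the 86 genes. Ndufs4, which was not called between Cre and ctrl, was at 56.003, 56.5 and 55.9 FPKM in Cre + NFIA, above every ctrl and Cre library (change of 0.42 on the log2 scale with an SE of 0.051, limma adjusted p = 0.000195 against ctrl). Ndufb5, an accessory subunit in the membrane arm, was at 92.0, 106 and 98.4 FPKM in ctrl against 134, 136 and 136 FPKM in Cre + NFIA. For Atp5c1 the levels were 163, 181 and 182 against 206, 229 and 223 FPKM. The 1 lower gene was Cox6a2, at 2.60, 2.80 and 3.01 FPKM in Cre + NFIA against 3.46, 6.51 and 7.53 FPKM in ctrl (change of -0.79 on the log2 scale with an SE of 0.24, limma adjusted p = 0.039), with every ctrl library above every Cre + NFIA library. The number called fell to 2 without replicate 2 of Cre + NFIA, to 3 without replicate 1 of ctrl and to 4 without replicate 1 or 3 of Cre + NFIA.

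With the Δpro#3 mutant no gene was called higher than in Cre. Of the 86 genes 47 were lower and none was higher, at a median log2 fold change of -0.30, where 17.7% of all genes were called, 10% were lower, 7.7% were higher and the median was 0.018. Among other genes of at most 1500 bases 10.2% were lower. Lower calls comprised 6 of 7 core and 14 of 28 accessory subunits of complex I, 4 of 4 in complex II, 6 of 8 in complex III, 9 of 13 in complex IV and 8 of 15 in complex V, and 0 of 8 assembly factors. The number moved with single libraries. Only 22 genes were called without replicate 2 of Cre or without replicate 1 of Cre + NFIA Δpro#3, 25 without replicate 1 of Cre, 29 without replicate 3 of Cre + NFIA Δpro#3 and 60 without replicate 3 of Cre, and with only these 2 groups in the model 18 were called. In these alternatives no gene of the set was higher.

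Ndufb3 (chr1:58643228-58652808), an accessory subunit of the membrane arm of complex I, had the largest change among the genes called. It was at 84.4, 95.3 and 68.8 FPKM in Cre against 49.2, 53.5 and 43.8 FPKM in Cre + NFIA Δpro#3 (change of -0.74 on the log2 scale with an SE of 0.11, limma adjusted p = 0.00124). Atp5g3 was at 483, 569 and 397 against 283, 301 and 308 FPKM (change of -0.68 on the log2 scale with an SE of 0.11, limma adjusted p = 0.00148) and Uqcrfs1 at 73.4, 86.0 and 61.8 against 44.1, 50.5 and 50.2 FPKM (change of -0.59 on the log2 scale with an SE of 0.11, limma adjusted p = 0.00316). In all 3 the groups did not overlap. Sdha, at 131, 138 and 114 against 85.9, 97.4 and 101 FPKM, fell by 0.42 on the log2 scale, and Uqcrc2, at 56.04, 56.02 and 47.7 against 38.3, 37.6 and 39.96 FPKM, by 0.45. The summed adipocyte markers of Cre + NFIA Δpro#3 (841 to 2124 FPKM) lay below those of every Cre library as well.

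Set directly against full-length NFIA, the mutant libraries were lower in 80 of 86 genes and higher in none, at a median of -1.10, where 69.2% of all genes were called, 28.9% lower and 40.4% higher. Among other genes of at most 1500 bases 37.1% were lower, at a median of -0.13. A 3-fold difference on the log2(FPKM + 1) scale was reached by 6 of the 86 (6.98%, against 6.92% of all genes), a share near the background. These were Uqcrfs1 (change of -1.80 on the log2 scale with an SE of 0.11, limma adjusted p = 3.48e-08), Uqcrc2 (change of -1.77 on the log2 scale with an SE of 0.067, limma adjusted p = 2.59e-09), Atp5g3 (change of -1.76 on the log2 scale with an SE of 0.11, limma adjusted p = 4.38e-08), Ndufb3, Uqcrq and Uqcr10. Levels of Atp5g3 were 1010.0, 1022 and 992 FPKM with full-length NFIA and 283, 301 and 308 FPKM with the mutant. Nfia itself was at 97.1, 89.0 and 83.9 against 111, 99.5 and 95.0 FPKM in these libraries, reads of the transgenes included.

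At day 0 the chain was less affected. For Cre against ctrl, 1 gene was higher and none lower, Atp5j2 of the membrane part of ATP synthase, at 313, 257 and 294 FPKM in ctrl against 348, 363 and 368 FPKM in Cre (change of 0.32 on the log2 scale with an SE of 0.074, limma adjusted p = 0.0414), where 3.33% of all genes were called with 1.63% higher and 1.7% lower. No gene was called there without replicate 2 or 3 of either group, and 3 were called without replicate 1 of either. For Cre + NFIA against Cre, 19 genes were higher (22.1%) and 4 lower (4.65%, Sdhc, Cox7c, Ndufa7 and Atp5k). The share called, 26.7% of the 86, was near the 27.6% of all genes, of which 14.7% were higher and 12.9% lower. Past 3-fold were 0.538% of all genes (1.85% by mean FPKM) and 0 of the 86 genes by either measure. For Cre + NFIA Δpro#3 against Cre, 20 were higher and 1 lower (Cox6b2), where 18.3% were called, 9.26% higher and 9.02% lower, and among other genes of at most 1500 bases 13.4% were higher. With the trend over gene length removed the splits became 15 higher and 8 lower, and 9 higher and 4 lower. Without replicate 2 of Cre + NFIA the first of these counts was 12, and 13 without replicate 3 of Cre + NFIA, and the second was 10 without replicate 3 and 13 without replicate 1 of Cre + NFIA Δpro#3.

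Among the genes higher in both, 6 were picked after their values were seen, and these lay above every ctrl library too. Also called higher in both were Ndufa4l2, Uqcrc1, Atp5b, Ndufa10, Atp5g3, Ndufa12, Sdhd, Ndufb5 and Atp5a1. Of these, Ndufa4l2 was very low, with means of 0.310 FPKM in Cre, 0.881 in Cre + NFIA and 1.93 in Cre + NFIA Δpro#3. Its ctrl mean, 1.08 FPKM, was above that of Cre + NFIA. Ndufb2, a small accessory subunit of complex I, was at 23.7, 20.6 and 21.8 FPKM in ctrl, 22.1, 21.3 and 19.4 in Cre, 34.4, 34.5 and 36.6 in Cre + NFIA and 38.2, 36.9 and 42.7 in Cre + NFIA Δpro#3 (change of 0.72 on the log2 scale with an SE of 0.071, limma adjusted p = 3.22e-05 for Cre + NFIA against Cre and 0.88, limma adjusted p = 3.04e-05, for the mutant). Cox5a, a matrix-side subunit of complex IV, was at 48.6, 48.8 and 46.0 FPKM in ctrl, 52.2, 48.4 and 56.4 in Cre, 76.5, 77.8 and 76.8 in Cre + NFIA and 78.4, 77.4 and 74.8 in Cre + NFIA Δpro#3. Cox8a was at 202, 152 and 216 FPKM in ctrl, 204, 199.6 and 220.5 in Cre, 331, 317 and 301 with NFIA and 367, 346 and 355 with Δpro#3. Both are subunits of complex IV, as is Cox5b (144 ± 11.98 FPKM in Cre, 223 ± 6.99 in Cre + NFIA and 242 ± 13.2 in Cre + NFIA Δpro#3). The rest of the 6 were Uqcrq and Atp5d, the δ subunit of the ATP synthase stalk. The groups share the Cre libraries. At this stage 7 of 8 proliferation markers were higher in Cre + NFIA and 6 of 8 in Cre + NFIA Δpro#3 than in Cre. The summed adipocyte markers were 82.8 to 101.2 FPKM in Cre, 105.2 to 111.4 in Cre + NFIA and 72.6 to 79.5 in Cre + NFIA Δpro#3. Lpl was the largest part of these sums (means of 64.2, 59.9 and 40.3 FPKM in the same order), and single adipocyte markers went both ways. Cebpa was at 8.60, 20.6 and 5.25 FPKM and Fabp4 at 13.6, 18.2 and 26.3 FPKM. The part of the proliferation and adipocyte markers in the day 0 differences was not tested.

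**Figure D4:**
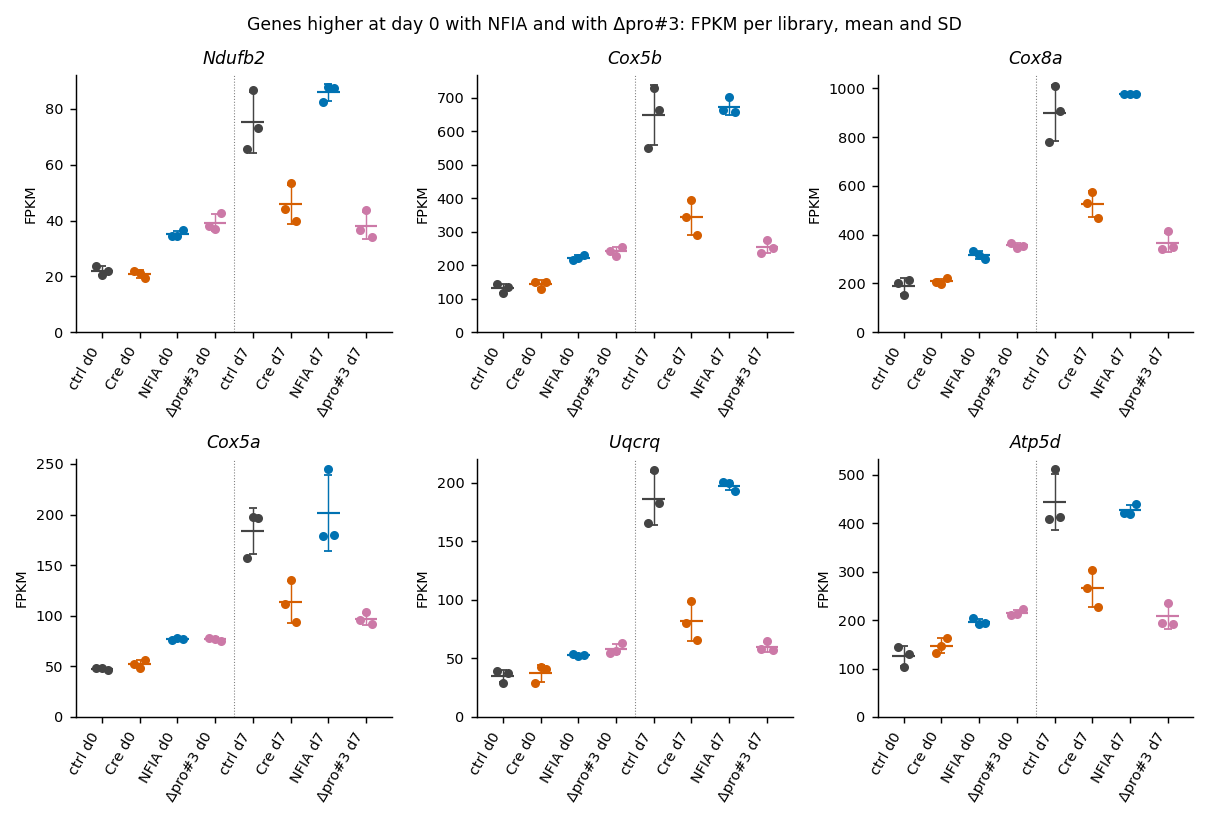
FPKM of 6 genes per library in the 8 groups (points, with group mean as a line and SD as error bar, n = 3; d0 and d7 are day 0 and day 7). At day 0 the 3 libraries with NFIA and the 3 with Δpro#3 lie above the ctrl and Cre libraries in each panel. At day 7 the ctrl and NFIA means are highest in each panel, and of the 6 genes Cox5a was called higher at day 7 than at day 0 in Δpro#3 (76.8 to 97.2 FPKM) and the other 5 were not called.

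Isoforms of the same subunit had changes of different size, which were not tested against each other. The 3 genes Atp5g1, Atp5g2 and Atp5g3 encode a subunit c that is identical once the targeting peptide is removed. Atp5g3 made up 42.1% ± 1.67 of their summed FPKM in ctrl at day 0 and 64.8% ± 1.36 at day 7 (SD, n = 3). At day 7 its share was 55.6% ± 2.18 in Cre, 67.0% ± 0.472 in Cre + NFIA and 47.6% ± 2.67 in Cre + NFIA Δpro#3. The share of Atp5g2 went from 38.8% ± 0.727 to 21.3% ± 1.06 in ctrl. All 3 genes rose in ctrl, with log2 fold changes of 1.21 for Atp5g1, 0.82 for Atp5g2 and 2.30 for Atp5g3. In Cre against ctrl at day 7 they fell by 0.42, 0.35 and 0.93 on the same scale.

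In complex IV the less abundant isoforms went different ways in Cre + NFIA against ctrl at day 7. Cox6a2 was lower there than in ctrl, whereas the isoforms left out by the rule were higher. Against Cre the mean of each was higher in Cre + NFIA. These means were 2.80 against 1.37 FPKM for Cox6a2, 14.3 against 1.14 for Cox7a1 and 110.6 against 0.160 for Cox8b. Cox7a1, the heart and brown fat isoform of subunit VIIa, was at 4.67, 5.73 and 8.13 FPKM in ctrl against 13.0, 14.7 and 15.3 FPKM in Cre + NFIA (change of 1.12 on the log2 scale with an SE of 0.21, limma adjusted p = 0.00409), and Cox8b at 9.87, 14.4 and 12.7 against 109.7, 115 and 107 FPKM (change of 3.08 on the log2 scale with an SE of 0.13, limma adjusted p = 5.87e-08). No library of the groups overlapped in either gene. As a share of the summed FPKM of the pair, Cox8b was 1.35% ± 0.0846 beside Cox8a in ctrl and 10.2% ± 0.323 in Cre + NFIA, and Cox7a1 was 2.62% ± 0.808 beside Cox7a2 in ctrl and 5.65% ± 0.386 in Cre + NFIA. The ubiquitous partners were not called in this comparison, with Cox8a at 899 ± 115 and 978 ± 0.986 FPKM and Cox7a2 at 231 ± 22.9 and 239 ± 12.2 FPKM. Cox6b2, the testis isoform, was at 0 to 6.55 FPKM over the libraries, against 736 ± 72.8 FPKM of Cox6b1 in ctrl at day 7. Ndufa4, now counted as a subunit of complex IV, rose in ctrl (272 ± 15.4 to 673 ± 23.3 FPKM), whereas its hypoxia-induced relative Ndufa4l2 was at 0 to 2.44 FPKM over the libraries.

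**Figure D5:**
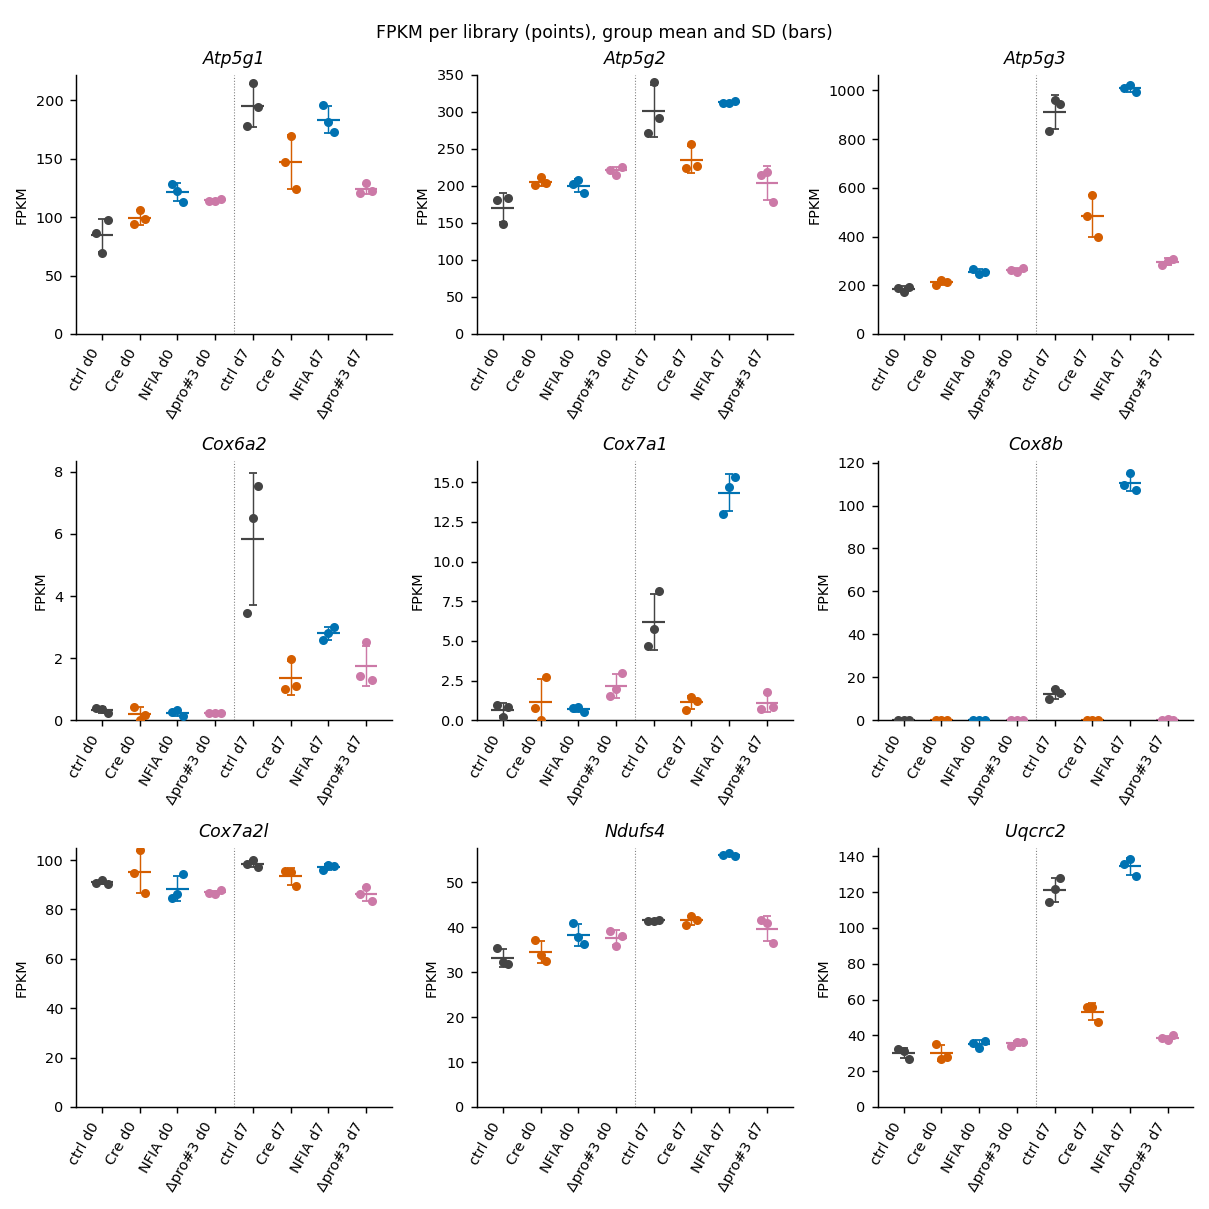
FPKM per library of the 3 subunit c genes, Cox6a2, the isoforms Cox7a1 and Cox8b, Cox7a2l, Ndufs4 and Uqcrc2 (points, with group mean as a line and SD as error bar, n = 3; d0 and d7 are day 0 and day 7). Atp5g3 rises more than Atp5g1 and Atp5g2, Cox6a2 is highest in ctrl at day 7, and Cox7a1 and Cox8b are highest in Cre + NFIA at day 7.

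Other mitochondrial genes, both of oxidative phosphorylation and of general functions, were followed in lists. In Cre + NFIA against Cre at day 7, 13 of 16 electron carrier genes were higher, 25 of 33 assembly factors of the complexes, 16 of 16 general mitochondrial genes and 8 of 12 genes of mitochondrial DNA expression, where 27% of all genes were higher, with none lower in these lists and median log2 fold changes of 0.99, 0.58, 0.67 and 0.29, against -0.057 over all genes. In Cre against ctrl 13 of 16, 22 of 33, 16 of 16 and 8 of 12 were lower, where 22.7% of all genes were, and 1 assembly factor, Nubpl, was higher. In Cre + NFIA Δpro#3 against Cre 9 of 16, 7 of 33, 4 of 16 and 1 of 12 were lower, where 10% of all genes were lower, and none was higher. The 1 of 12 is a share near that of all genes. Cycs, the cytochrome c that links complexes III and IV, was at 122, 151 and 145 FPKM in ctrl, 47.3, 53.0 and 32.4 in Cre, 129, 139 and 133 in Cre + NFIA and 23.98, 27.1 and 24.4 in Cre + NFIA Δpro#3 at day 7. Its log2 fold change was -1.66 (limma adjusted p = 2.47e-06) in Cre against ctrl and 1.598 (limma adjusted p = 1.56e-06) in Cre + NFIA against Cre, beyond that of any of the 86 genes on the log2(FPKM + 1) scale. Cyc1, the complex III gene outside the symbol rule, had day 7 means of 381 FPKM in ctrl, 173 in Cre, 416 in Cre + NFIA and 129 in Cre + NFIA Δpro#3. Cs, the citrate synthase of the tricarboxylic acid cycle, was at 646, 698 and 709.6 FPKM in ctrl, 261, 282 and 197 in Cre, 725, 720.3 and 722 with NFIA and 131, 150.3 and 162 with Δpro#3. Atpaf2, which assembles the catalytic head of ATP synthase, was at 69.8 ± 6.45, 30.0 ± 6.53, 72.8 ± 2.25 and 16.6 ± 1.89 FPKM (SD, n = 3), the groups listed as for Cs.

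Genes that control or restrain the chain went both ways. Of 9 transcriptional regulators tested, 5 were higher and 1 was lower in Cre + NFIA than in Cre, where 27% of all genes were higher and 35.9% lower. Ppargc1a, a coactivator of mitochondrial gene expression, was at 1.14, 1.49 and 1.70 FPKM in ctrl, 0.531, 0.332 and 0.165 in Cre, 5.91, 6.13 and 5.55 in Cre + NFIA and 0.0910, 0.201 and 0.179 in Cre + NFIA Δpro#3 at day 7 (log2 fold change 2.36, limma adjusted p = 2.71e-08, for Cre + NFIA against Cre). Every Cre + NFIA library was above every ctrl library (log2 fold change 1.497, limma adjusted p = 1.24e-05). Its relative Ppargc1b was at 15.8, 17.4 and 17.0 FPKM in ctrl, 8.05, 8.58 and 4.33 in Cre, 12.1, 10.8 and 12.4 with NFIA and 1.36, 2.60 and 2.37 with Δpro#3, highest in ctrl. Pprc1, of the same family, went the other way, at 23.9, 25.4 and 26.8 FPKM in Cre against 15.04, 15.6 and 15.8 in Cre + NFIA (log2 fold change -0.68, limma adjusted p = 2.78e-06). Atpif1, the inhibitor that stops ATP synthase from running backwards, was lower in Cre + NFIA as well, at 59.4, 65.7 and 62.4 FPKM in Cre against 44.7, 48.8 and 47.0 FPKM in Cre + NFIA (log2 fold change -0.41, limma adjusted p = 0.00133), whereas Usmg5, a small subunit of the same enzyme that the symbol rule does not take, was higher (log2 fold change 0.65, limma adjusted p = 5.38e-05).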

How the data were processed

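Poly(A) RNA of 24 libraries (8 groups, n = 3) had been sequenced with a stranded kit. The authors aligned reads to mm9 with STAR 2.5.3a, kept unique alignments, counted them per gene on the matching strand and deposited FPKM values. Dividing by the smallest steps gave whole reads for every value within 0.01 reads, so the depth of each library (7.73 to 14.62 M reads) could be recovered. Genes at 1 FPKM in at least 3 libraries (12640) were tested on log2(FPKM + 1) with limma 3.58.1 (trend, R 4.3.3), comparisons within a day in the 12 libraries of that day and the others in all 24, with Benjamini-Hochberg adjustment over all genes tested. The step was checked on simulated data. Replicates differed by more than counting noise in every group. Genes named with full statistics were the most abundant of each complex, the 3 with the largest called change in each direction of 5 comparisons, core catalytic subunits and isoform pairs, and 1 gene is counted but not reported here by name. Others were chosen after their values were seen. Members and lists were chosen with earlier results of these data known. Alternatives changed the pseudocount, filter, scaling, gene-length trend, libraries fitted, replicate block, tool and threshold, and left out each replicate. The background of other short genes and the fold of mean FPKM were added after the data were seen.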

Additional observations from a re-analysis of the deposited data

Results flagged for a closer look

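In 3 tests the gap between a pair of cell types was not the same at day 0 as at day 7 (interaction in limma, adjusted p under 0.05). For Cre against ctrl this held for 79 of the 86 respiratory chain genes, 78 of them lower at day 7 relative to day 0 and 1 higher, where 49.2% of all genes were called and 19.5% moved lower. For Cre + NFIA against Cre it held for 69 genes, all towards higher, where 48.9% of all genes were called and 18.8% moved higher. For Cre + NFIA Δpro#3 against Cre it held for 55 genes, all towards lower, where 18.2% of all genes were called and 10.4% moved lower. The 3 tests share the Cre libraries, and the adipocyte markers moved in the same direction in all 3 comparisons at day 7, with all 10 lower, all 10 higher and all 10 lower. Their part in the result was not tested.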

How the results depend on the processing

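In every comparison but day 7 against day 0 in Cre + NFIA Δpro#3, where median-of-ratios size factors turned 10 higher and 4 lower into 3 higher and 5 lower and leaving out replicate 2 at day 7 into 3 higher and 6 lower, and Cre against ctrl at day 0, where at most 5 genes were called and the 1 called with the length trend removed was lower, most calls kept the same direction under the alternatives run. Asking for a 3-fold change on the log2(FPKM + 1) scale as well left 24 genes at day 7 against day 0 in ctrl, 14 in Cre + NFIA, 6 in Cre + NFIA Δpro#3 against Cre + NFIA and 0 in the other comparisons and interactions. With the 3-fold change taken from mean FPKM, chosen after seeing the data, the counts were 27 in ctrl, 14 in Cre + NFIA, 1 in Cre and 2 in Cre + NFIA Δpro#3 for day 7 against day 0, 1 for Cre against ctrl and 6 for Cre + NFIA Δpro#3 against Cre + NFIA at day 7, 2 for Cre + NFIA Δpro#3 against Cre at day 0 (Cox6b2 and Ndufa4l2) and 0 in the other comparisons of 2 groups. An adjusted p under 0.01 left 17 for Cre + NFIA Δpro#3 against Cre at day 7, 2 for Cre + NFIA against ctrl, 0 for Cre against ctrl at day 0, 7 for Cre + NFIA and 9 for Cre + NFIA Δpro#3 against Cre at day 0, and 3 for day 7 against day 0 in Cre + NFIA Δpro#3. For Cre + NFIA Δpro#3 against Cre at day 7 the count was 27 without the filter and 18 with only the groups compared, where fewer libraries set the spread. For Cre + NFIA against ctrl it was 3 without the filter, 4 with median-of-ratios size factors and 11 with all 24 libraries. For Cre against ctrl at day 0 it was 0 without the filter, with median-of-ratios size factors, with quantile normalization and with only the groups compared, 2 with all 24 libraries, 4 with a mean of at least 5 FPKM and 5 with limma voom on recovered reads. For Cre + NFIA Δpro#3 against Cre at day 0 it was 13 with the length trend removed. For day 7 against day 0 in Cre + NFIA Δpro#3 it was 9 without the filter, 8 with median-of-ratios size factors and 22 with the length trend removed, and the median there turned from 0.024 to -0.032 with median-of-ratios size factors. Except where the alternative's construction is named, the cause was not tested.

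Leaving out 1 library gave 77 to 80 genes for Cre against ctrl at day 7, 78 to 81 for Cre + NFIA against Cre, 22 to 60 for Cre + NFIA Δpro#3 against Cre, 80 to 82 for it against Cre + NFIA and 2 to 8 for Cre + NFIA against ctrl. At day 0 the ranges were 0 to 3 for Cre against ctrl, 12 to 21 for Cre + NFIA and 10 to 20 for Cre + NFIA Δpro#3 against Cre. For day 7 against day 0 they were 82 to 83 in ctrl, 64 to 72 in Cre, 81 to 84 in Cre + NFIA and 8 to 9 in Cre + NFIA Δpro#3, and for the interactions 78 to 80, 66 to 72 and 41 to 62. Median-of-ratios size factors moved the median of all genes for Cre against ctrl at day 7 from 0.091 to -0.021 and that of the 86 genes from -0.70 to -0.84. Outside the 100 most counted genes the share of reads was 0.830% in Cre and 0.889% in Cre + NFIA at day 0, and 2.17% in Cre + NFIA at day 7.

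Same-numbered replicates did not deviate together in every pair (correlations of -0.274 to 0.201 over comparisons), so the numbers were not used as a pairing. With the replicate number as a block the count for Cre against ctrl at day 0 was 2, and all other counts stayed within 1.5 times their value, with 78 for Cre against ctrl, 80 for Cre + NFIA against Cre and 54 for Cre + NFIA Δpro#3 against Cre at day 7. Depth limits the low isoforms Cox6a2, Cox6b2 and Ndufa4l2, which did not reach 1 FPKM in all libraries.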
